A study of Mus musculus with 4 samples.

Results

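The 58 genes described here make up the machinery that copies DNA in S phase: the factors that license and fire replication origins, the helicase, the polymerases, the sliding clamp and its loader, the enzymes that finish new strands, the suppliers of nucleotides, the E2F and cyclin E regulators, and the factors that pack new DNA into chromatin. They were chosen by gene name, though with earlier results of these data known. The arrays measured 18193 genes with a probe set naming that gene alone, a probe set being a group of short probes for one transcript. Such a probe set existed for 57 of the 58, the exception being Chaf1a, and all 57 passed the filter on dim signals. Each gene is represented by its probe set with the highest mean over the arrays.

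The study asked which genes differ in expression between KO and wild-type (WT) mouse T cells cultured to become regulatory T cells. Naive T cells from the spleen of KO mice or of WT mice were placed in Treg-inducing culture for 3 days, and total RNA was measured on 2 KO and 2 WT single-colour Affymetrix arrays. The labels name neither the gene removed in the KO nor the strain, age or sex of the mice, nor whether an array holds the cells of one mouse or of several. Each array is labelled with its genotype and a number, and nothing says whether the number stands for a mouse. Nor is it said how far the arrays of a genotype are separate biological samples. The p-values rest on the variation among these 4 arrays, some of which may be technical.

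The values are MAS5 signals in linear units, in which the mean without the outer 2% of probe sets was set to 500 on every array. T cell transcripts were present on all arrays: Cd3d, Cd3e and Cd3g had signals of at least 3062 in KO and at least 1722 in WT cells. Of 7 tested T cell markers these 3 were called higher in KO cells, Cd5 was called lower (-0.82 ± 0.09) and 3 were not called. Foxp3, the defining factor of regulatory T cells, had 947 and 1101 in KO against 2177 and 2033 in WT cells. Of the 5 CD4 and regulatory T cell markers, Foxp3 and Ikzf2 were called lower, Il2ra (0.99 ± 0.12) and Ctla4 (0.97 ± 0.10) were called higher, and Cd4 was not called. Transcripts of other cell types also differed. The summed signal of 8 mast cell and basophil markers was 42934 and 29413 on KO arrays 1 and 2, against 857 and 1328 on WT arrays 1 and 2, with 7 of the 8 called higher. That of 4 eosinophil markers was 5466 and 2062 in KO and 22.8 and 75.1 in WT cells, where Prg2 was at 1.16 and 9.03. Of the other marker lists, 5 of 7 tested myeloid markers and both CD8 markers were higher in KO cells, and none of 3 tested B cell markers was called. In the NK cell list Klrk1, Tyrobp and Fcer1g were higher in KO cells. Ncr1 of that list was under the filter on dim signals, at 58.5 and 33.6 in KO and 20.4 and 8.18 in WT cells. Which cells made these transcripts was not tested. Of 3 plasma cell markers 2 were higher, with Jchain at 4841 and 2421 in KO and 65.1 and 66.2 in WT cells. The part of these transcripts in the results below was not tested.

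DNA replication begins at origins that are licensed in G1, when the origin recognition complex, Cdc6 and Cdt1 load the ring-shaped MCM2-7 helicase. In S phase, kinases and the partners Cdc45 and GINS turn the ring into a running helicase, behind which polymerases copy both strands. Many of these genes are transcribed shortly before and during S phase, when E2F transcription factors are released from the retinoblastoma protein family. Activated T cells divide quickly, and most of them are in cycle a few days after stimulation.

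Many replication genes had lower signals in KO than in WT cells, by modest folds, and none was called higher. Of the 57 tested members 18 fell in KO cells, 0 rose and 39 did not pass the test. The test was limma's moderated test over all 27022 tested probe sets on log2(signal + 16), with Benjamini-Hochberg adjusted p below 0.05. The 18 calls are 31.6% of the members. With the same rule of 1 probe set per gene, 9.87% of 12547 genes were called lower and 10.5% higher; over all tested probe sets the shares were 9.17% lower, 7.89% higher and 17.1% in either direction. At an unadjusted p below 0.05, 31 members were lower and 0 higher, where 18% of genes were lower. The log2 fold change was below 0 for 50 of the 57 members and for 52.5% of all genes. Both KO arrays lay below both WT arrays for 39 members and above them for 3, and 15 overlapped, while over all genes the shares were 32.9% below and 29.8% above. The median log2 fold change of the members was -0.36, with quartiles of -0.61 and -0.17, beside a median of -0.03 for all genes tested. Tyms is among the 18 and in these counts, though its call rests on a dim probe set described with the nucleotide enzymes. On log2(signal + 1) it fell under the filter on dim signals, and 17 of 56 tested members were called lower. Leaving Tyms aside, the called members had WT signals 1.33 to 1.93 times those of KO cells on the log2(signal + 16) scale.

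The calls depend on how the spread is estimated from so few arrays. Without a dependence of the variance on intensity, limma called 0 of the 57 members (smallest adjusted p = 0.0771), with 16 lower and 0 higher at an unadjusted p below 0.05. Calls also became fewer over all 27022 tested probe sets in that fit. It called 456 of them lower, against 2477 with the trend, and 727 higher, against 2131. Leaving out WT array 1 left 6 members called of 56 tested: Cdc6, Chaf1b, Dut, Lig1, Mcm3, Mcm7, Prim1, Rfc4, Rpa2, Slbp and Uhrf1 lost their calls, and Tyms fell under the filter on dim signals. Chaf1b, Prim1, Rfc4 and Uhrf1 also lost theirs without WT array 2 or without KO array 2, as did Lig1 without KO array 2, and Prim1 and Tyms without KO array 1. Tyms fell under the filter without WT array 2 as well. For each called member both KO arrays lay below both WT arrays. Leaving out 1 array therefore could not bring its log2 fold change to 0 or above. In arrays made of bulk RNA, a smaller share of cells in S phase and less of these transcripts per cell cannot be told apart.

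**Figure D1:**
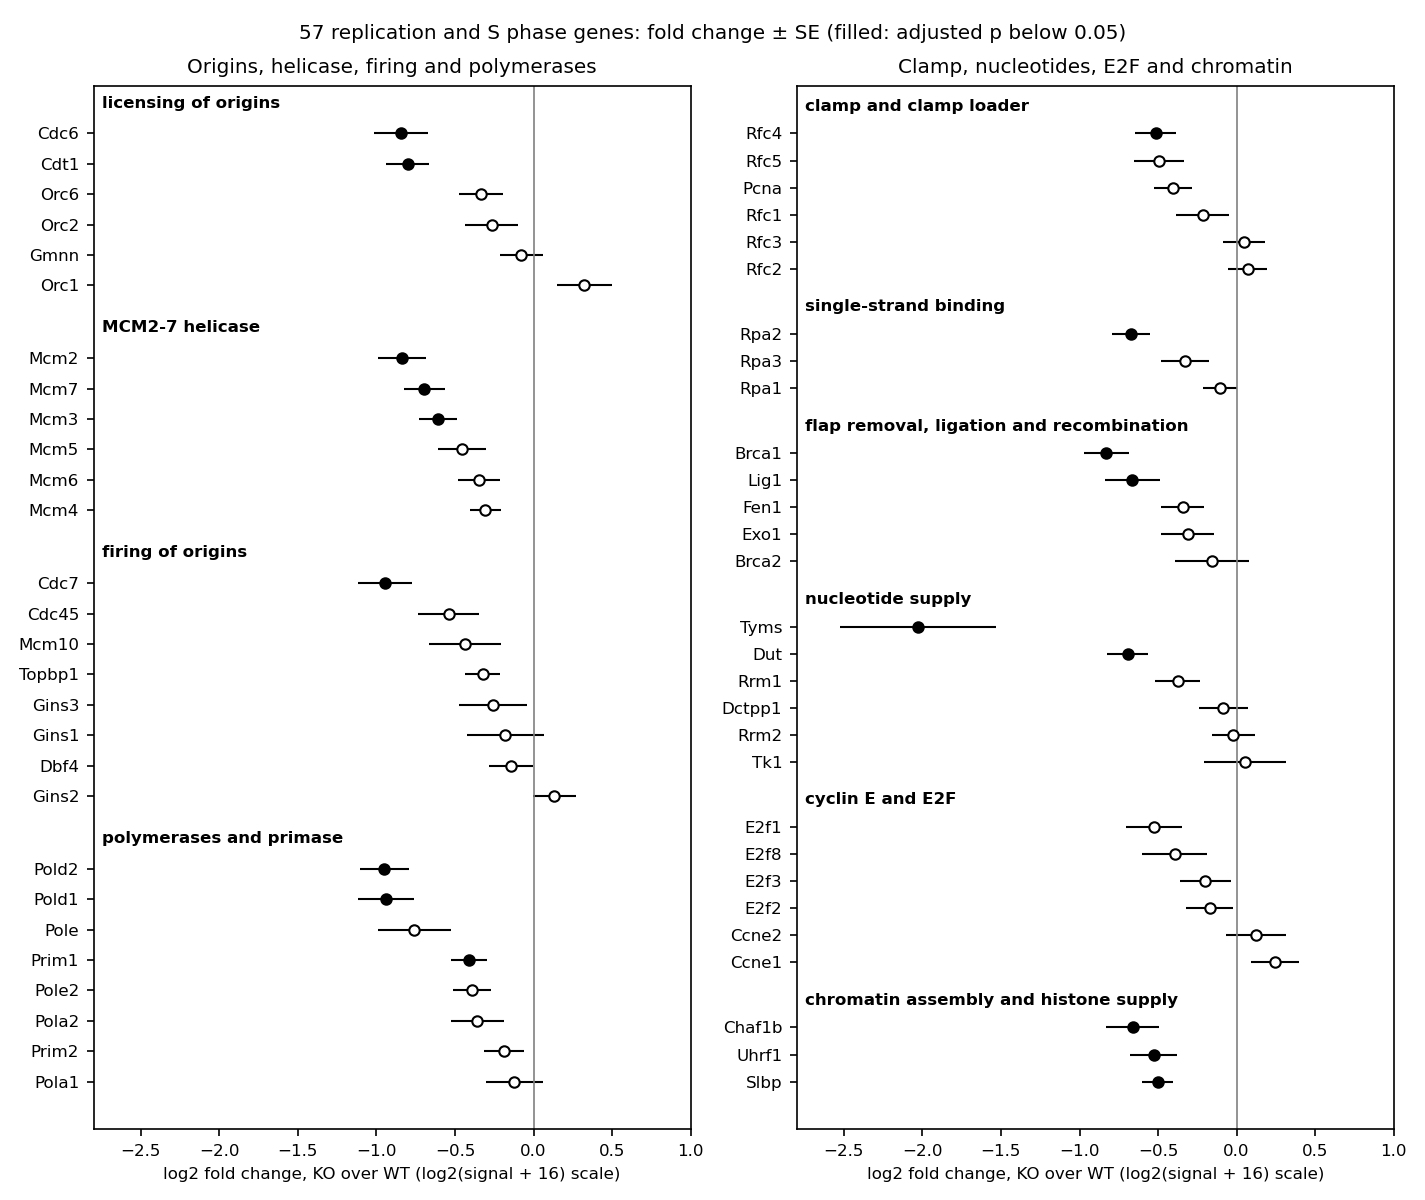
Log2 fold change of KO over WT (horizontal axis, log2(signal + 16) scale) with its standard error for the 57 measured members, grouped by role, n = 2 arrays per genotype. Filled points have an adjusted p below 0.05; all 18 of them lie left of 0, and 50 of the 57 genes have a value below 0.

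**Figure D2:**
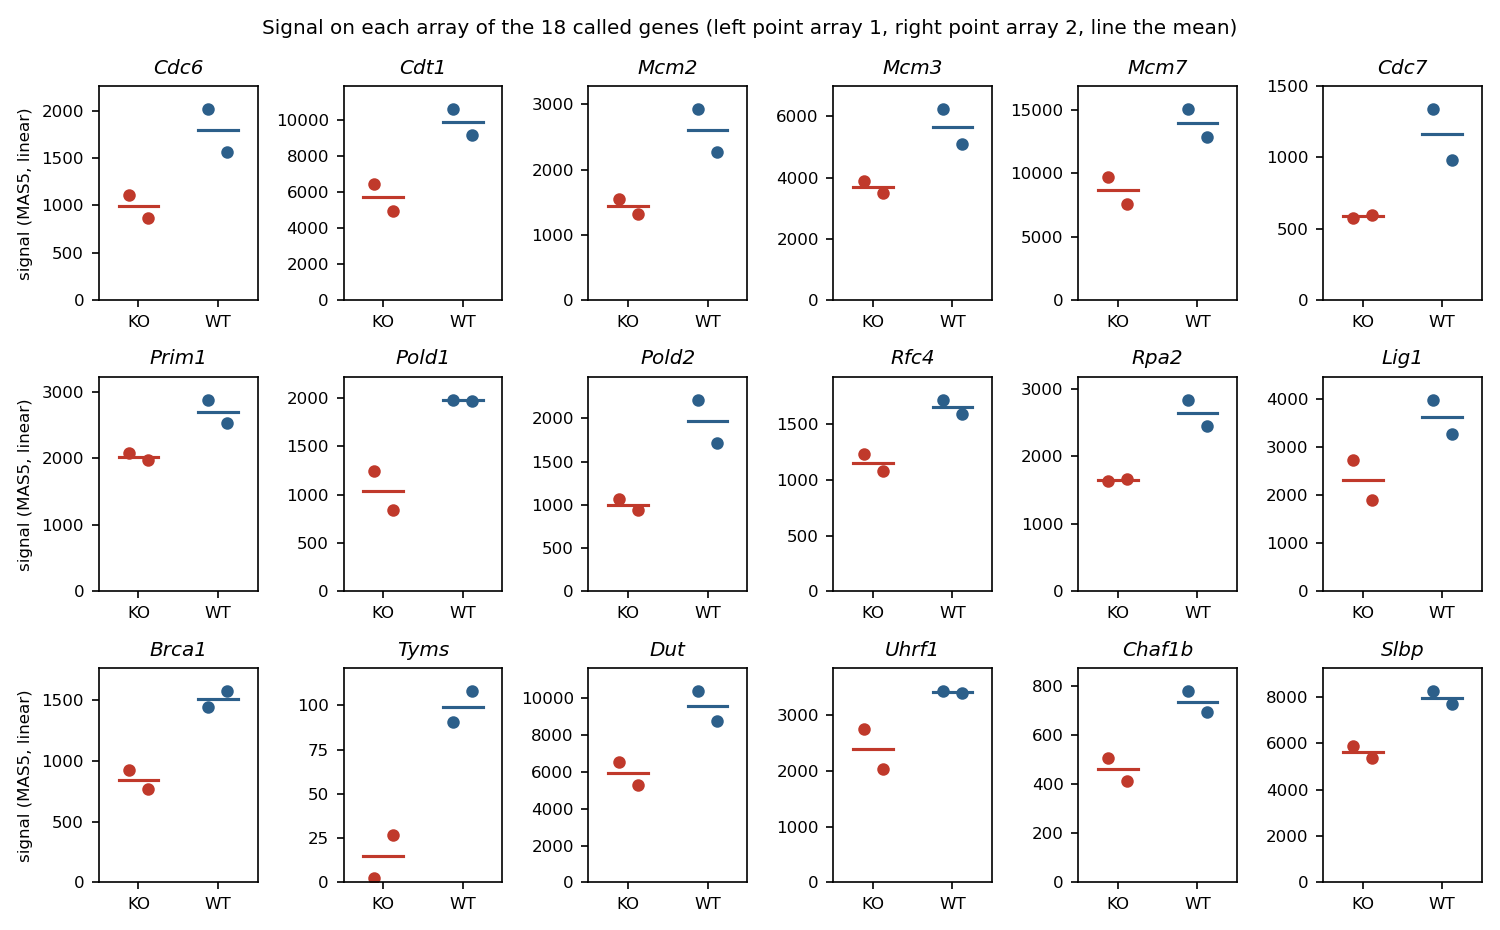
MAS5 signal (vertical axis, linear, from 0) on each array for the 18 called members, KO in red on the left and WT in blue on the right, with a line at the mean of the 2 arrays. In each panel both KO points lie below both WT points.

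The promoters of these genes are shown because E2F sites are the classic sequence feature of S phase genes. RefSeq promoter windows of build GRCm38.p6, from 250 bases before to 50 after the gene start, were found for 49 of the 58 members; Ccne2, Exo1, Gins1, Gins2, Gmnn, Mcm4, Pole, Prim2 and Rfc2 were not matched. An E2F site was searched in 4 forms of 8 letters, TTTCGCGC, TTTCCCGC, TTTGGCGC and TTTGCCGC, on both strands. It was found for 18 of 49 members (36.7%), against 4.63% of the 10143 genes tested on the arrays that have a window and 2.6% of all 27025 genes of the table. Of the 18 called members 7 had a site (38.9%), and so did 11 of the 30 members with a window that did not pass (36.7%). Taking for each gene its window with the highest GC content, the median over genes was 63% for the members and 61.7% for the tested genes.

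Stretches of 60 bases around the E2F site nearest the gene start follow for the 7 called members with a site, 5′ to 3′ on the strand of the gene, with each E2F site in capitals.
Cdc6, chr11:98907987-98908046, plus strand: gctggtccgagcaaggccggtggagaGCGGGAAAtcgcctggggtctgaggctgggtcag
Cdt1, chr8:122568005-122568064, plus strand: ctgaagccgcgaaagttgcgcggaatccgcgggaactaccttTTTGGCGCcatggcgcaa
Mcm3, chr1:20820263-20820322, minus strand: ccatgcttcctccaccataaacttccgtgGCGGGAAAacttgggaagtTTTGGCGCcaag
Mcm7, chr5:138171834-138171893, minus strand: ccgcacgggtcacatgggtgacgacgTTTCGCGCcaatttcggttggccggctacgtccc
Pold1, chr7:44548766-44548825, minus strand: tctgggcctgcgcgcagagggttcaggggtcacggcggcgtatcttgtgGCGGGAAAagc
Lig1, chr7:13278816-13278875, plus strand: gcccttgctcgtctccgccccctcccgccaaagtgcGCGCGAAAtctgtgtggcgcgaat
Uhrf1, chr17:56304102-56304161, plus strand: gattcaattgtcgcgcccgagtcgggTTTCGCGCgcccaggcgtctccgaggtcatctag

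The same stretches are given for 4 members that have a site and did not pass the test, among them 2 that had the higher mean signal in KO cells, Orc1 and Rfc3.
Orc1, chr4:108579401-108579460, plus strand: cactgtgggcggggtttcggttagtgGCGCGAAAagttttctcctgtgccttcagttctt
Mcm5, chr8:75109332-75109391, plus strand: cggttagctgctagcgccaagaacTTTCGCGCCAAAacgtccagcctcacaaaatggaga
Mcm6, chr1:128359719-128359778, minus strand: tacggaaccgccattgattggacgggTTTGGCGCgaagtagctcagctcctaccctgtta
Rfc3, chr5:151651180-151651239, minus strand: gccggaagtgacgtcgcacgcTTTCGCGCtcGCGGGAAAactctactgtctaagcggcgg

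The sites lay on both sides of the gene start. Counting the first base of the gene as position 0, the Cdt1 site began at 32, that of Lig1 at 26 and that of Pold1 at 39, while the Cdc6 site began at -138 and that of Uhrf1 at -185. Mcm3 had 2 sites, beginning at 19 and 38. In Mcm7 the site from 16 to 23 shares its last base with a CCAAT box that ends at 27, and a second E2F site began at -165. In Mcm5 and Rfc3 a pair of sites lay close together, overlapping on opposite strands in Mcm5, and Mcm6 had 3 in its whole window.

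A pair of other cell cycle motifs was searched in the same windows on both strands. The CCAAT box, which binds NF-Y, was present in 61.2% of members, 72.5% of 40 mitosis genes and 42.5% of tested genes. The CHR element, searched as TTTGAA and known from genes of G2 and mitosis, was in 20.4% of members, 70% of mitosis genes and 14.4% of tested genes, while E2F sites were in 7.5% of mitosis genes. These shares describe sequence letters and not the binding of a factor.

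**Figure D3:**
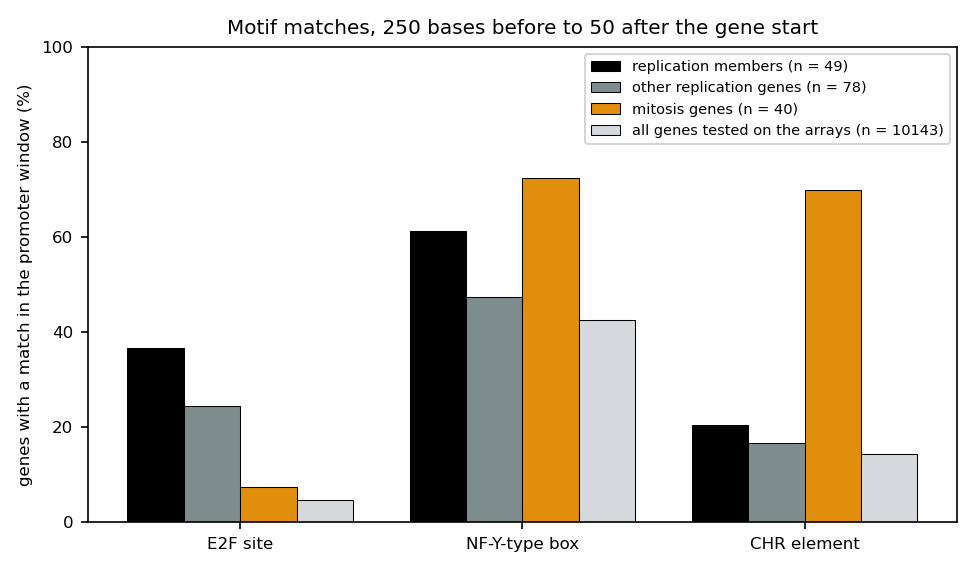
Percent of genes (vertical axis) with at least 1 match to an E2F site, the NF-Y-type box (CCAAT) or the CHR element in the promoter window, for 49 replication members, 78 other replication genes, 40 mitosis genes and 10143 genes tested on the arrays. E2F sites are most frequent in the replication members at 36.7%, and CHR elements in the mitosis genes at 70%.

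Among the licensing factors, the transcripts of Cdt1 and Cdc6, which help to load the helicase onto origins, fell. Cdt1, the loader that geminin holds in check, had signals of 6434 and 4977 in KO against 10609 and 9184 in WT cells, for a log2 fold change of -0.80 with a standard error of 0.14, written -0.80 ± 0.14 from here on (adjusted p = 0.00523 with limma). Cdc6, the ATPase that works with Cdt1, had 1108 and 871 in KO against 2016 and 1568 in WT cells, a log2 fold change of -0.84 ± 0.17 (adjusted p = 0.0116). For both genes the groups were separate, and the second probe set of Cdt1 also fell (-0.90 ± 0.15). Gmnn, which encodes geminin, had 4357 and 3419 in KO against 4324 and 3834 in WT cells, so that the groups overlapped (-0.08 ± 0.14, adjusted p = 0.747). The subunits of the origin recognition complex did not pass. Orc6 was at -0.33 ± 0.14 (adjusted p = 0.15), Orc2 at -0.27 ± 0.17 and Orc1 at 0.32 ± 0.17. Orc1 had 445 and 437 in KO against 371 and 328 in WT cells, the highest fold change of the 57 members.

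All 6 subunits of the MCM2-7 helicase, the motor that unwinds the double helix, had both KO arrays below both WT arrays, and 3 of them passed. Over all genes tested, 32.9% had both KO arrays below both WT arrays and 9.87% were called lower. Mcm2 had 1554 and 1319 in KO against 2925 and 2269 in WT cells (log2 fold change -0.84 ± 0.15, adjusted p = 0.0073). Mcm7 had 9727 and 7599 in KO against 15069 and 12869 in WT cells (-0.69 ± 0.13, adjusted p = 0.00919). Mcm3 had 3889 and 3500.1 in KO against 6240 and 5087 in WT cells, with a log2 fold change of -0.61 ± 0.12. These 3 subunits were thus separated between the groups by more than the arrays of one genotype differed. Mcm4 had 4927 and 5268 in KO against 6533 and 6089 in WT cells and did not pass (-0.31 ± 0.10, adjusted p = 0.0645). Mcm5, the subunit with 7488 and 5704 in KO against 10119.5 and 7950.3 in WT cells, was at -0.46 ± 0.15 (adjusted p = 0.0805), and Mcm6 at -0.35 ± 0.13 (adjusted p = 0.114). Further probe sets of Mcm2, Mcm3 and Mcm7 also fell, though for Mcm2 the change was smaller (-0.54 ± 0.13). The lowest-signal probe sets of Mcm3 and Mcm7 did not pass, nor did another of Mcm3 (-0.28 ± 0.25). The ring functions as a unit of all 6 proteins, and the difference between the called and uncalled subunits was not tested.

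Of the 8 genes that turn loaded helicases into active forks, Cdc7 alone fell. Cdc7, the kinase that phosphorylates the MCM ring together with its activator Dbf4, had 578 and 597 in KO against 1339 and 985 in WT cells (log2 fold change -0.95 ± 0.17, adjusted p = 0.0073). Its second, dimmer probe set did not pass, at -0.47 ± 0.29 (adjusted p = 0.303). Dbf4 had 1381 and 1135 in KO against 1415 and 1356 in WT cells, and the groups overlapped (-0.14 ± 0.14). Topbp1, a scaffold for origin firing and checkpoint signalling, had 2829 and 2509 in KO against 3462 and 3222 in WT cells and did not pass (-0.32 ± 0.11, adjusted p = 0.0852). Cdc45, the helicase cofactor, was at -0.54 ± 0.19 (adjusted p = 0.0951), and the other 4 genes of this step, Mcm10, Gins1, Gins2 and Gins3, lay between -0.44 and 0.13.

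Pold1 and Pold2, subunits of the lagging-strand polymerase delta, fell, while its subunits Pold3 (-0.32 ± 0.14) and Pold4 (0.09 ± 0.11), which are outside the list, did not pass. Pold2, its regulatory subunit, had 1071 and 937 in KO against 2211 and 1718 in WT cells (log2 fold change -0.95 ± 0.15, adjusted p = 0.00428), the smallest adjusted p of the list. Pold1, the catalytic subunit, had 1245 and 839.6 in KO against 1979.6 and 1969 in WT cells (-0.94 ± 0.18, adjusted p = 0.00938). Its second probe set gave a smaller fall (-0.57 ± 0.17, adjusted p = 0.0498). Prim1, the catalytic subunit of primase, had 2078 and 1973 in KO against 2877 and 2526 in WT cells and fell by 0.41 on the log2 scale (adjusted p = 0.0448). Pole, the catalytic subunit of the leading-strand polymerase epsilon, had 746 and 562 in KO against 1398 and 875 in WT cells. Its WT arrays were far apart and it did not pass (-0.76 ± 0.23, adjusted p = 0.0576). Pole2 was at -0.39 ± 0.12 (adjusted p = 0.0618). Pola1, Pola2 and Prim2, of the polymerase alpha and primase complex, lay between -0.36 and -0.12 and did not pass.

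The sliding clamp and its loader were less uniform. Pcna, the ring that tethers polymerases to DNA, had 18199.6 and 14259 in KO against 22029 and 20681 in WT cells, and with a log2 fold change of -0.41 ± 0.12 it lay at the threshold without passing (adjusted p = 0.05005). Rfc4, a subunit of the clamp loader, had 1231 and 1079 in KO against 1718 and 1592 in WT cells and fell (-0.52 ± 0.13, adjusted p = 0.0289), as did its second probe set (-0.59 ± 0.14). Rfc5 was at -0.49 ± 0.16 (adjusted p = 0.0676), and Rfc1, the large subunit, at -0.21 ± 0.17. Rfc2 (0.07 ± 0.13) and Rfc3 (0.05 ± 0.13) had overlapping groups. Among the 3 subunits of replication protein A, which coats single-stranded DNA, Rpa2 had 1629 and 1664 in KO against 2832 and 2453 in WT cells and fell (-0.67 ± 0.12, adjusted p = 0.00661). Its second probe set fell too (-1.09 ± 0.19). Rpa3 was at -0.33 ± 0.15, and Rpa1, the large subunit, had 12980.3 and 10586 in KO against 12575.5 and 12668 in WT cells (-0.11 ± 0.11, adjusted p = 0.558).

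Of the genes that finish or repair new strands, 2 of 5 fell. Brca1, which acts in fork protection and homologous recombination, had 925 and 767 in KO against 1443 and 1576 in WT cells (log2 fold change -0.83 ± 0.14, adjusted p = 0.00587). Its 3 other tested probe sets had signals of at most 113 on all arrays and did not pass, and 1 of them was at 0.33 ± 0.39. Lig1, the ligase that joins Okazaki fragments, had 2728 and 1896 in KO against 3983 and 3274 in WT cells (-0.66 ± 0.18, adjusted p = 0.0357). The KO arrays differed for Lig1, and without KO array 2 its log2 fold change was -0.40 with no call (adjusted p = 0.0845). Fen1, the flap endonuclease, had 3483 and 2711 in KO against 4114 and 3694 in WT cells and did not pass (-0.34 ± 0.14). Exo1, an exonuclease, and Brca2, which acts in homologous recombination, were at -0.31 ± 0.17 and -0.16 ± 0.23.

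The nucleotide enzymes split. Dut, which removes dUTP so that uracil is kept out of DNA, had 6514 and 5307 in KO against 10384.5 and 8736 in WT cells (log2 fold change -0.69 ± 0.13, adjusted p = 0.008), and its second probe set fell further (-1.17 ± 0.23). By contrast Rrm2, the small subunit of ribonucleotide reductase, had 12139 and 9377 in KO against 11813 and 9904 in WT cells, so that the KO values lay outside the WT values on both sides (-0.02 ± 0.14, adjusted p = 0.943). Tk1, thymidine kinase, had 1703 and 942 in KO against 1415 and 1054 in WT cells, with both KO values outside the WT range (0.05 ± 0.26). Rrm1, the large reductase subunit, was at -0.38 ± 0.14 (adjusted p = 0.109), and Dctpp1, a nucleotide pyrophosphatase, at -0.08 ± 0.16. Tyms, thymidylate synthase, was called at -2.03 ± 0.50 (adjusted p = 0.0265), but this rests on a dim probe set with 2.47 and 27.0 in KO against 90.4 and 108 in WT cells. The other tested Tyms probe set had signals between 24.6 and 52.2 and was at 0.43 ± 0.42, so the 2 probe sets disagree. The called one passed the filter on dim signals only through its WT arrays, so its call and its fold support nothing further. It was not called without KO array 1 (-1.42, adjusted p = 0.0537).

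None of the 6 E2F and cyclin E genes, which control entry into S phase, passed the test in either direction with limma. At an unadjusted p below 0.05, 1 of them was lower in KO cells. That was E2f1, an activating E2F, which had 339 and 306 in KO against 504 and 441 in WT cells (log2 fold change -0.53 ± 0.18, adjusted p = 0.0798). Its second probe set was at 0.41 ± 0.33 and a dimmer one of E2f3 at 1.16 ± 0.40, neither of them called. E2f8, an atypical repressor E2F, was at -0.40 ± 0.20, E2f3 at -0.20 ± 0.16 and E2f2 at -0.17 ± 0.15. Ccne1, a cyclin E gene, had 895 and 836 in KO against 801 and 662 in WT cells (0.24 ± 0.15, adjusted p = 0.32), and Ccne2 was at 0.12 ± 0.19. The regulators therefore had values on both sides of 0.

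The 3 members of chromatin assembly and histone supply that had a probe set fell, while of 11 further chromatin assembly genes outside the list 3 fell and 8 did not pass. Slbp, which binds the stem-loop of histone mRNAs, had 5875 and 5382 in KO against 8257 and 7693 in WT cells (log2 fold change -0.50 ± 0.10, adjusted p = 0.00988), and its second probe set fell as well (-0.89 ± 0.21). Chaf1b, a subunit of the histone chaperone CAF-1, had 508 and 415 in KO against 781 and 693 in WT cells (-0.66 ± 0.17, adjusted p = 0.0307). Its second, dimmer probe set did not pass (-0.34 ± 0.50). Uhrf1, which brings the maintenance DNA methyltransferase to newly copied DNA, had 2764 and 2032 in KO against 3439.7 and 3409.98 in WT cells, with a log2 fold change of -0.53 ± 0.15. A dimmer probe set of Uhrf1 did not pass (-0.45 ± 0.26). The WT arrays were close together for Uhrf1 and the KO arrays were not, and without KO array 2 it was at -0.31 with no call (adjusted p = 0.107).

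Arrays of the same genotype also differed in these genes. KO array 1 was above KO array 2 for 47 of the 57 members, by a median of 0.28 on the log2 scale, and WT array 1 was above WT array 2 for 50 members, by a median of 0.20. Over all genes tested these medians were 0.01 and -0.01. Relative to each gene's mean over the 4 arrays, the median member stood at -0.05 on KO array 1, -0.33 on KO array 2, 0.29 on WT array 1 and 0.10 on WT array 2. KO array 1 thus lay nearer to WT array 2 than to KO array 2. The mitosis genes had the same order of arrays within each genotype, with KO array 1 above KO array 2 for 45 of 48 genes and WT array 1 above WT array 2 for 44. The median log2 fold change of the members was -0.49 without KO array 1, -0.25 without KO array 2, -0.27 without WT array 1 and -0.48 without WT array 2. Of the 2 KO arrays, the first also had the larger sums of mast cell and eosinophil markers given above, and their part in this difference was not tested.

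**Figure D4:**
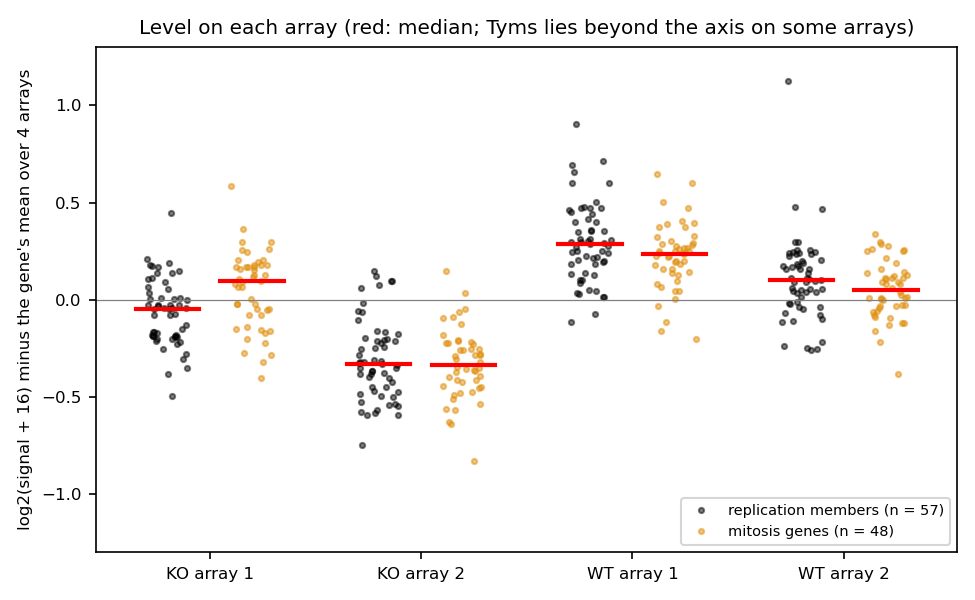
Level of each gene on each array relative to its mean over the 4 arrays (vertical axis, log2(signal + 16) units) for 57 replication members (black) and 48 mitosis genes (orange), with red lines at the medians. The members' medians are -0.05 and -0.33 on the KO arrays and 0.29 and 0.10 on the WT arrays; Tyms on KO array 1 lies beyond the axis.

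Most replication genes outside the list did not pass the test. Of 99 such genes 94 had a probe set, 93 were tested, 20 fell (21.5%, beside 9.87% of all genes), 3 rose and 70 did not pass, at a median log2 fold change of -0.25. Beside the 20, 12 were called lower without KO array 2, 3 without WT array 1 and 13 without WT array 2. The largest fall was that of Ung, the glycosylase that removes uracil from DNA, which had 356 and 421 in KO against 1260.4 and 992 in WT cells (log2 fold change -1.49 ± 0.18, adjusted p = 0.000868). In all, 5 of 17 tested checkpoint and repair genes fell, among them the mismatch repair gene Msh6 (-0.58 ± 0.10) and the kinase gene Wee1, which restrains mitotic entry (-0.72 ± 0.17). Among fork factors Rnaseh2a, a subunit of the RNase that removes ribonucleotides from DNA (-0.68 ± 0.13), the fork protection gene Timeless (-0.77 ± 0.17), the checkpoint mediator Clspn (-0.70 ± 0.18) and Dscc1, of an alternative clamp loader (-0.60 ± 0.16), fell. Clspn was at -0.45 with no call without KO array 2, and the lowest-signal probe set of Wee1 was at -0.31 with no call. Neither Clspn nor Dscc1 was called without the filter on dim signals. Their lowest-signal probe sets were not called either, at -0.47 for Clspn and -0.60 for Dscc1.

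The nucleotide genes outside the list and the regulators moved both ways. Dtymk, thymidylate kinase (-0.61 ± 0.12), Shmt2, a serine hydroxymethyltransferase (-0.61 ± 0.13), Dck, deoxycytidine kinase (-0.48 ± 0.10), and Cad, of pyrimidine synthesis (-0.67 ± 0.15), fell. Some of these calls depended on the probe set. Without cross-hybridising probe sets Shmt2 was at -0.34 and Cad at -0.36, and with the lowest-signal probe set Dck was at -0.07, Dtymk at -0.21 and Shmt2 at -0.15, none of them called. Nme1, a nucleoside diphosphate kinase, had 7878 and 7294 in KO against 5063 and 4198 in WT cells and rose (0.72 ± 0.12, adjusted p = 0.00409), but its lowest-signal probe set did not pass (0.38). Cdkn1a, which encodes the cell cycle inhibitor p21, had 12704 and 13522 in KO against 6819.6 and 8029 in WT cells and rose as well (0.82 ± 0.10, adjusted p = 0.00128). Rbl2, which encodes the pocket protein p130 of resting cells, rose (0.53 ± 0.11, adjusted p = 0.0147), while its relative Rbl1, which encodes p107, had 2268 and 2142 in KO against 3358 and 3479 in WT cells and fell (-0.63 ± 0.11, adjusted p = 0.0049). Cdk2, the kinase partner of cyclin E (-0.66 ± 0.17), Tfdp2, a dimer partner of E2F factors (-0.72 ± 0.17), and Lin9, of the complex that represses or activates cell cycle genes (-0.59 ± 0.17), fell too, though the lowest-signal probe set of Lin9 was at 0.035. Cdk2 and Lin9 were not called without the filter on dim signals, and the lowest-signal probe set of Rbl1 was not called (-0.40). None of 13 other origin factors was called by limma, with 2 at an unadjusted p below 0.05. In chromatin assembly Rbbp4 (-0.35 ± 0.09), Asf1a (-0.43 ± 0.12) and the maintenance methyltransferase gene Dnmt1 (-0.57 ± 0.17) fell. Without KO array 2 Dnmt1 was at -0.35 with no call, and without cross-hybridising probe sets Rbbp4 was at -0.23 with no call. None of Rbbp4, Asf1a and Dnmt1 was called without the filter on dim signals or with its lowest-signal probe set.

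Mitosis genes, the other large programme of dividing cells, had a median log2 fold change of -0.28. Of 48 tested, 8 fell, 0 rose and 40 did not pass, or 16.7% called lower, beside 9.87% of all genes. At an unadjusted p below 0.05, 0 were higher. Both KO arrays lay below both WT arrays for 68.4% of the replication members, 22 of the 48 mitosis genes (45.8%) and 32.9% of all genes. Racgap1, which acts in cytokinesis, had the smallest adjusted p (-0.90 ± 0.17, adjusted p = 0.0082), followed by the condensin subunit gene Ncapd2 (-0.77 ± 0.15). With their lowest-signal probe sets neither was called, Racgap1 at -0.06 and Ncapd2 at -0.42. Mki67, the proliferation marker, had 3160 and 1771 in KO against 3038 and 2574 in WT cells, and the groups overlapped (-0.24 ± 0.23, adjusted p = 0.535). This count hung on single arrays: 20 mitosis genes were called lower without KO array 1, 5 without KO array 2, 3 without WT array 1 and 4 without WT array 2. Whether the replication and mitosis genes differ in their shift was not tested.

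**Figure D5:**
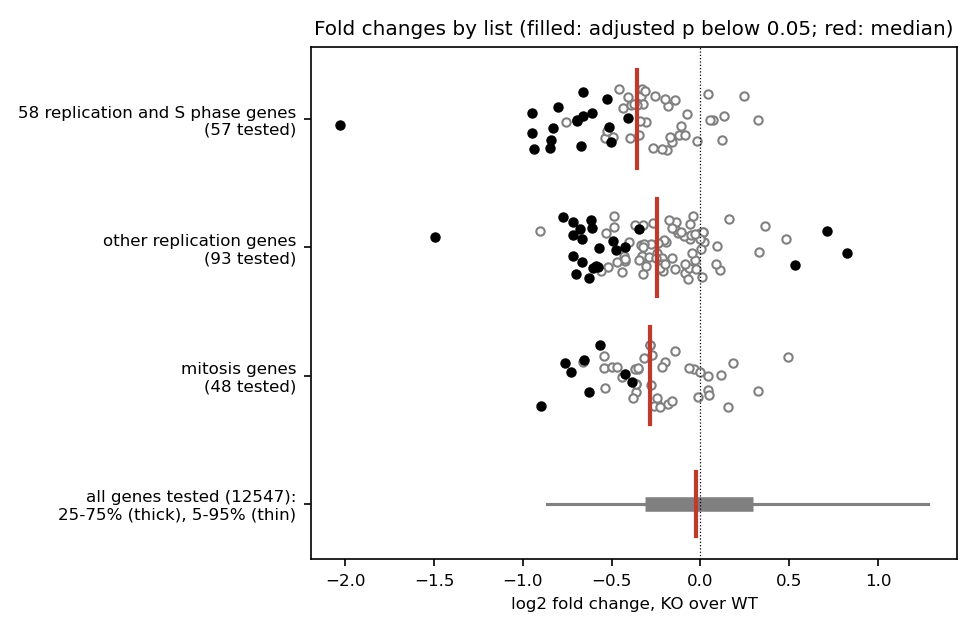
Log2 fold change of KO over WT (horizontal axis) for the 57 tested replication members, 93 other replication genes and 48 mitosis genes, 1 point per gene, filled where the adjusted p was below 0.05, with red lines at the medians of -0.36, -0.25 and -0.28. The bar at the bottom gives all 12547 genes, with a median of -0.03, quartiles of -0.31 and 0.30 (thick) and the range from the 5% to the 95% quantile (thin).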

How the data were processed

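Total RNA of T cells from 2 KO and 2 WT samples, grouped by the genotype in their labels, was labelled and hybridised to Affymetrix arrays, 1 array per sample, per the labels' protocols. The values the authors deposited are signal intensity values per probe set on a linear scale. Per the submitters' processing notes they come from MAS5, for which no version or setting is stated. That method scales each array to a common mean, so a difference in total RNA per cell is removed, and dim signals vary strongly. The number of arrays limits the precision.

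Genes were named from the platform annotation, which gives a single gene for 34958 of 45101 probe sets, more than 1 for 932 and no gene for 9211; 34754 of the identifiers were found in the RefSeq table of GRCm38.p6, which changed 0 symbols. Without the 64 control probe sets, signals were put on the log2(signal + 16) scale, and dropping the dimmest 40% by mean left 27022 probe sets. The KO and WT arrays were set against each other with limma 3.58.1 in R 4.3.3 (lmFit, then eBayes with an intensity trend; two-sided), and p-values were adjusted by Benjamini-Hochberg over the 27022. There were 2 residual and 6.41 prior degrees of freedom. An exact permutation test of these groups cannot give a two-sided p below 0.333. Called means an adjusted p below 0.05, and fell or rose is written only of called genes. Fold changes understate those of dim genes.

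The members and lists were chosen with earlier results of these data known, so no p-value is given for a list. Named were all called members, in each role the uncalled member with the smallest p and that with the highest signal, up to 4 called genes of each other list, and Mki67 and the 2 called mitosis genes with the smallest p. The other members named, and Pold3, Pold4, Cad, Cdk2, Lin9 and Pttg1, were added after their values were seen. One called gene that the rule names is not reported here. Arrays were simulated with the means of the 27022 probe sets and 200 changed ones. On the log2 scale limma called 0% of changes of 0.5, 18% of 1, 68% of 2 and 82% of 3, with 4 false calls among 88. In the data 4608 probe sets were called, far more than the 200 changed there, which makes the adjusted threshold less strict. The simulated shares therefore do not give the detection rate in the data. Alternatives were other pseudocounts, filters, scalings and probe set choices, no intensity trend, a replicate block and leaving out each array. Over all tested probe sets, same-numbered arrays did not deviate together (r = 0.01), so the numbers were not taken as pairs. Promoter sequences are RefSeq's.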

Additional observations from a re-analysis of the deposited data

How the results depend on the processing

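No alternative called a replication member higher in KO cells, and the median log2 fold change of the members stayed between -0.49 and -0.25 in all of them. The count of 18 called members was 13 to 25 in most alternatives. The exceptions were 0 without the intensity trend, 6 without WT array 1 (6 to 25 over the arrays left out in turn) and 11 with the lowest-signal tested probe set of each gene. With median centring it was 14 and with a replicate block 25, a fit that treats equal numbers in the labels as pairs. Same-numbered arrays did not deviate together over all probe sets (r = 0.01), although array 1 was above array 2 for most members in both genotypes (47 of 57 in KO, 50 in WT). Cdt1, Mcm2, Pold1 and Pold2 kept their calls in every alternative but the fit without trend, and the 14 others lost theirs or could not be tested in at least 1 more. With the lowest-signal probe set, Brca1 stood at 0.33 and Tyms at 0.43, Lin9 at 0.035 and Pttg1 at 0.17, none of them called.

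Other replication genes called lower numbered 20, against 12 with no filter, 1 without the trend, 9 with the lowest-signal probe set and 3 to 19 with arrays left out in turn; the 3 called higher became 0 without the trend, with 3 higher at an unadjusted p below 0.05, and 2 to 4 with arrays left out. Mitosis genes called lower numbered 8, against 0 without the trend (7 at an unadjusted p below 0.05), 13 with the replicate block, 5 with the lowest-signal probe set and 3 to 20 with arrays left out. Of all probe sets 4608 were called, against 1183 without the trend and 2575 to 4484 with arrays left out. The cause of these shifts was not tested.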
